A study of Mus musculus with 6 samples.

Results

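Cyclins, cyclin-dependent kinases (CDKs) and CDK inhibitors were examined in cultures of MC3T3-E1, a mouse line of bone-forming precursor cells from newborn C57BL/6 calvaria, for which the labels name no subclone. Members were taken by symbol from the array rows that name exactly 1 gene: cyclins A to Y, numbered CDKs and the Cdkn genes, without the matricellular genes Ccn1 to Ccn6. The rule found 51 genes on 56 probe sets, out of 19938 genes measured. The undifferentiated group (3 arrays) was kept in α-MEM free of ascorbic acid with 10% serum. The differentiated group (3 arrays) had reached confluence and then spent 14 days in DMEM with 10% serum, pyruvate (1 mM), β-glycerophosphate (10 mM), ascorbic acid 2-phosphate (0.2 mM) and the glucocorticoid dexamethasone (0.1 µM). Medium, density, time and compounds therefore differ together and cannot be told apart. The design text calls the replicates independent but does not say whether they were separate cultures, so the p-values measure the spread between these arrays, which may be technical.

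A cyclin binds a CDK and switches it on, and the cell cycle is driven by a relay of such pairs. D-type cyclins with Cdk4 or Cdk6 start the phosphorylation of the retinoblastoma family in G1, E-type cyclins with Cdk2 open S phase, A-type cyclins act through S and G2, and B-type cyclins with Cdk1 drive mitosis. INK4 inhibitors (Cdkn2 genes) bind Cdk4 and Cdk6, and CIP/KIP inhibitors (Cdkn1 genes) bind cyclin-CDK pairs more broadly. A separate branch of the family works on RNA polymerase II and RNA processing, and some members have roles in neurons, cilia or signalling.

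The deposited values are log2 expression, shifted so that each probe set has a median of 0 over the 6 arrays. A value therefore says how far an array lay above or below the middle for that gene, and no level, detection call or comparison of levels between genes can be read. When the groups do not overlap, the nearest arrays of the groups lie equally far from 0 on either side, apart from genes that average several probe sets. A gene was called changed at an adjusted p under 0.05 in a limma fit over all genes, and errors on log2 fold changes are moderated standard errors (3 arrays per group). Fold changes are differentiated over undifferentiated.

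Of the 51 members, 18 fell, 9 rose and 24 did not pass the test. Over all genes 35.5% were called, 19.1% lower and 16.4% higher. A fall of at least 2-fold was seen in 7 members (Ccna2, Ccnb2, Ccnf, Cdk1, Cdkn3, Ccne2 and Ccng1), against 2.28% of all genes, and a rise of at least 2-fold in 2 (Cdk15 and Ccnd3), against 2.53%. All differentiated arrays lay below all undifferentiated ones in 24 members (23% of all genes) and above them in 11 (23.2% of all genes; 46.2% in either direction), and the groups overlapped in 16. The median log2 fold change of the members was -0.08, and that of all genes was 0.02.

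**Figure D1:**
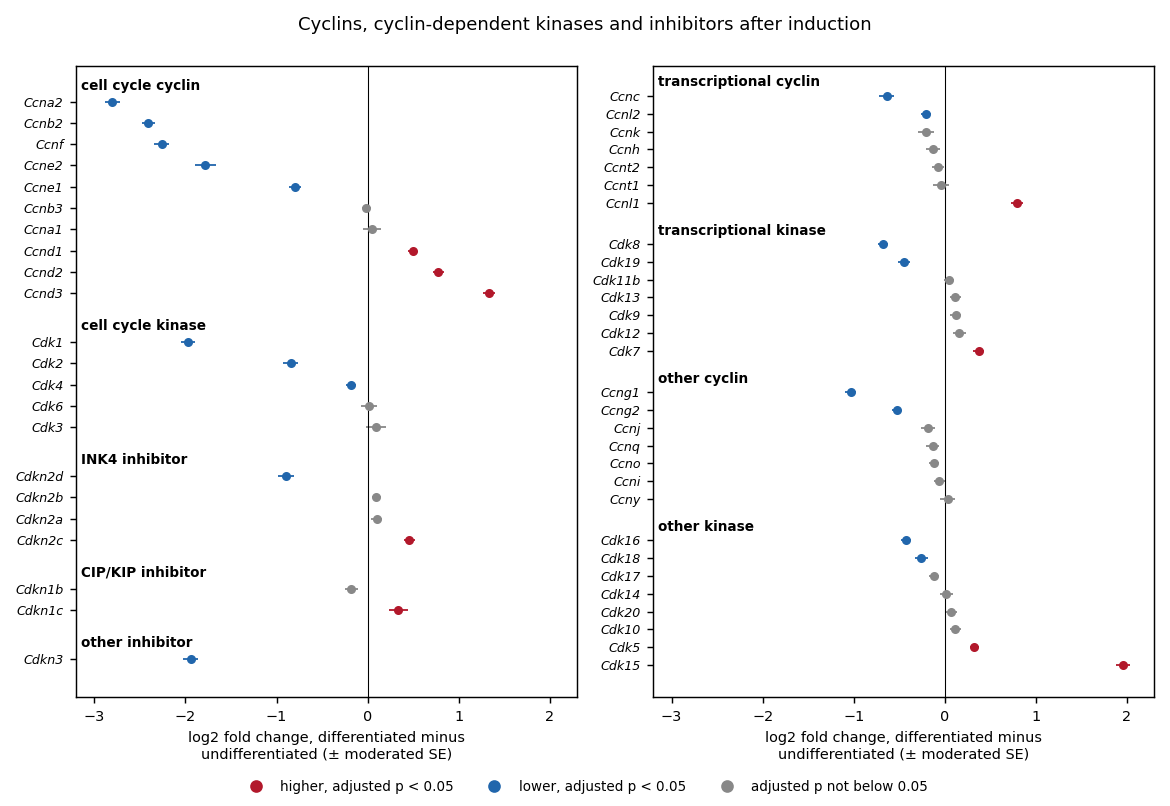
Log2 fold change of each of the 51 members, differentiated minus undifferentiated, on a linear axis with its moderated standard error as the bar, ordered within each role. D-type cyclins lie to the right of 0 (0.49 to 1.33) while Ccna2, Ccnb2, Ccne1, Ccne2, Ccnf and Cdk1 lie to the left (-2.81 to -0.80), Ccna1 and Ccnb3 lie near 0 (0.05 and -0.02), and the transcriptional members lie between -0.68 and 0.79.

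Of the 10 cell cycle cyclins 5 fell (Ccna2, Ccnb2, Ccnf, Ccne1 and Ccne2), 3 rose (the D-type cyclins) and 2 did not pass (Ccna1 and Ccnb3). Ccna2, the somatic A-type cyclin, stood at 1.43, 1.41 and 1.32 in the undifferentiated arrays and at -1.61, -1.34 and -1.32 in the differentiated arrays. It was 6.99-fold lower (-2.81 ± 0.08, adjusted p = 4.42e-08), rank 13 from the bottom among all genes. Ccnb2, a mitotic B-type cyclin, stood at 1.11, 1.22 and 1.17 against -1.11, -1.21 and -1.38. For both cyclins the gap between the groups was many times the spread within them. Ccnb2 was 5.30-fold lower (-2.41 ± 0.07, adjusted p = 5.25e-08).

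Ccnf, which encodes the F-box protein cyclin F and binds no CDK but directs ubiquitination in G2, stood at 1.12, 1.02 and 1.02 against -1.32, -1.02 and -1.28, and was 4.80-fold lower (-2.26 ± 0.08, adjusted p = 1.22e-07). The E-type cyclins fell by different amounts. Ccne2 stood at 1.05, 1.20 and 0.71 against -0.82, -0.71 and -0.88, with undifferentiated replicate 3 lowest of its group, and was 3.45-fold lower (-1.78 ± 0.11, adjusted p = 3.28e-06). Ccne1 stood at 0.44, 0.49 and 0.33 against -0.47, -0.34 and -0.33 and was 1.74-fold lower (-0.80 ± 0.06, adjusted p = 1.33e-05). The germline cyclins did not pass, with Ccna1 at 0.05 ± 0.10 (adjusted p = 0.777) and Ccnb3 at -0.02 ± 0.05 (adjusted p = 0.854). Ccnb1 was not analysed here.

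All 3 D-type cyclins, the growth-factor-responsive partners of Cdk4 and Cdk6, moved the other way. Ccnd3 stood at -0.72, -0.59 and -0.68 in undifferentiated and at 0.59, 0.75 and 0.65 in differentiated arrays. It was 2.52-fold higher (1.33 ± 0.06, adjusted p = 5.15e-07). Ccnd2 stood at -0.49, -0.42 and -0.33 against 0.35, 0.43 and 0.33, and was 1.71-fold higher (0.78 ± 0.06, adjusted p = 1.25e-05). Ccnd1 stood at -0.27, -0.21 and -0.30 against 0.21, 0.27 and 0.21, and was 1.41-fold higher (0.49 ± 0.05, adjusted p = 9.18e-05). In each of these genes every differentiated array lay above every undifferentiated one.

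The kinases of the cycle were graded. Cdk1, the mitotic kinase, stood at 1.04, 1.11 and 0.89 against -0.89, -0.91 and -1.07, and was 3.92-fold lower (-1.97 ± 0.08, adjusted p = 1.62e-07). Cdk2, the partner of cyclins E and A, stood at 0.41, 0.44 and 0.30 against -0.30, -0.51 and -0.59, and was 1.80-fold lower (-0.85 ± 0.08, adjusted p = 4.46e-05). The G1 kinases moved little. Cdk4 stood at 0.07, 0.10 and 0.07 against -0.09, -0.15 and -0.07. Its fall of 1.14-fold (-0.19 ± 0.05, adjusted p = 0.0208) was lost without undifferentiated replicate 2 (adjusted p = 0.0651) or differentiated replicate 2 (0.0752). Cdk6 stood at 0.03, -0.08 and 0.12 against -0.03, 0.21 and -0.08, so the groups overlapped. Its change was 0.01 ± 0.09 (adjusted p = 0.948), with a 95% interval from -0.19 to 0.21. Cdk3, listed in the RefSeq gene table as a transcribed pseudogene in the mouse, was at 0.09 ± 0.11 (adjusted p = 0.584).

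**Figure D2:**
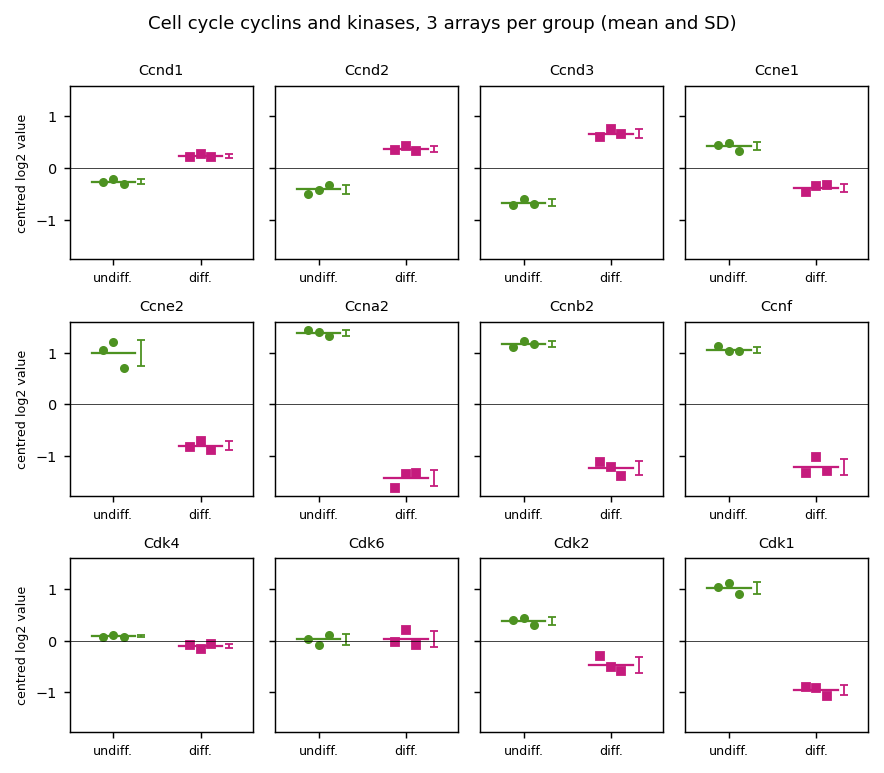
Centred log2 value of 12 cell cycle members in each array, with 3 undifferentiated arrays (circles) and 3 differentiated arrays (squares) per panel, the mean as a line and the SD as a bar, on 1 shared linear axis. Ccnd1, Ccnd2 and Ccnd3 step upward, Ccne1, Ccne2, Ccna2, Ccnb2, Ccnf, Cdk2 and Cdk1 step downward, and the groups overlap in Cdk6.

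Promoters are shown for the 4 members with the largest falls that have an entry in the RefSeq-derived promoter table (GRCm38.p6), because these genes fell together and their promoters could be searched for letters tied to the cell cycle. CHR (cell cycle genes homology region) elements, searched as TTTGAA and TTCGAA, are bound by the MuvB complexes that repress or activate G2/M genes, and CCAAT boxes, searched as CCAAT, are bound by NF-Y. E2F sites were searched as TTTCCCGC, TTTGGCGC, TTTCGCGC and TTTGCCGC. Both strands were read, and TTCGAA reads the same on both. Each sequence runs 5′ to 3′ on the gene's strand over the 250 bases before the annotated start, with any of these matches in capitals. The positions are chr9:70421555-70421804 (minus strand) for Ccnb2, chr17:24251410-24251659 (minus strand) for Ccnf, chr10:69352913-69353162 (minus strand) for Cdk1 and chr14:46760291-46760540 (plus strand) for Cdkn3, all directly upstream of the gene.
Ccnb2: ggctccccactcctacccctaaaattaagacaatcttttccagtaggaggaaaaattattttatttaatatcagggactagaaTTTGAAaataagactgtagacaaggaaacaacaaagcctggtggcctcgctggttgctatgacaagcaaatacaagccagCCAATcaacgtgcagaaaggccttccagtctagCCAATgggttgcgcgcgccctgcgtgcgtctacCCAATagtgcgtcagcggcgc
Ccnf: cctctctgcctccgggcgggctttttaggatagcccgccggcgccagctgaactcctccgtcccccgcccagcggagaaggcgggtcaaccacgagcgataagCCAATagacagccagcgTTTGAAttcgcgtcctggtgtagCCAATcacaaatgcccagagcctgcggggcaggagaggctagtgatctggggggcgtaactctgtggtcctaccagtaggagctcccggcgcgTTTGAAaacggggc
Cdk1: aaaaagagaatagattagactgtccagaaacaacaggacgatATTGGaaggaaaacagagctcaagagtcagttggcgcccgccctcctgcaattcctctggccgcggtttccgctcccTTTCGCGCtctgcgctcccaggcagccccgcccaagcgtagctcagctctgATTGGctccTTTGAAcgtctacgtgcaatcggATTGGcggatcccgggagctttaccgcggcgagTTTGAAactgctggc
Cdkn3: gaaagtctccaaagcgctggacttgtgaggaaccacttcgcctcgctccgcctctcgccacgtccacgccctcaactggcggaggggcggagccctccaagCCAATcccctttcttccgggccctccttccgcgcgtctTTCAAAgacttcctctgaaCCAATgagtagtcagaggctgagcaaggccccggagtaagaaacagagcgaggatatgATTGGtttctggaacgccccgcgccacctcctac

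In Ccnb2 the 3 CCAAT boxes began at -87, -54 and -21 from the start, 33 bases apart each time. One CHR match began at -167, and another outside the printed stretch began at base 5 past the start. In Cdk1 a pair of CCAAT boxes on the other strand lay 32 bases apart, with CHR matches at -71 and -15 and the E2F match at -131. Another CCAAT box on that strand began at -208, 128 bases before the pair. Ccnf held CHR matches at -130 and -14 and a pair of CCAAT boxes 40 bases apart. Cdkn3 held 1 CHR match, on the opposite strand, at -111. Its CCAAT boxes before the start began at -149, -92 and -34, 57 and 58 bases apart. Another began at base 10 past the start, outside the printed stretch.

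Promoter entries were found for 40 of the 51 members, and the search over all of them used 250 bases before to 50 after the start. A CHR match was present in 3 of 10 cell cycle members (Ccnb2, Ccnf and Cdk1), 0 of 12 transcriptional members, 2 of 12 other members (Ccni and Cdk16) and 2 of 6 inhibitors (Cdkn2b and Cdkn3). Of all 32851 promoters, 19.2% held a CHR match, and 2.54% held at least 2, as did Ccnb2, Ccnf, Cdk1 and Ccni. CCAAT was present in 6 of 10 cell cycle members, 5 of 12 transcriptional members, 5 of 12 other members and 5 of 6 inhibitors, and in 37.4% of all promoters. The E2F letters were present in Cdk1, Cdk2 and Cdkn2a, and in 2.26% of all promoters. A gene with several promoter entries was counted if any of them matched, while the shares of all promoters count single entries. A match is a string of letters, and binding was not measured.

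CDK inhibitors did not move as a group: 2 of 7 rose, 2 fell and 3 did not pass, with a median log2 fold change of 0.09. The shares over all genes were 16.4% higher and 19.1% lower, and no difference from them was tested for these 7 genes. Cdkn3 was the largest fall. It encodes a phosphatase that removes the activating phosphate from Cdk2 and Cdk1, and it stood at 0.96, 0.88 and 0.93 against -1.19, -1.0 and -0.88. It was 3.85-fold lower (-1.94 ± 0.08, adjusted p = 2.37e-07), close in size to Cdk1.

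Among the INK4 genes, Cdkn2d and Cdkn2c moved in opposite directions. Cdkn2d (p19-INK4d) stood at 0.34, 0.71 and 0.54 against -0.38, -0.37 and -0.34, and was 1.86-fold lower (-0.89 ± 0.09, adjusted p = 4.65e-05). Cdkn2c (p18-INK4c) stood at -0.31, -0.17 and -0.25 against 0.26, 0.22 and 0.17, and was 1.37-fold higher (0.46 ± 0.06, adjusted p = 2.44e-04). The groups did not overlap in either gene. Cdkn2b, which lies beside Cdkn2a in the genome and encodes p15-INK4b, stood at -0.07, -0.04 and -0.02 against 0.07, 0.02 and 0.05 and did not pass (0.09 ± 0.05, adjusted p = 0.202). Cdkn2a stood at -0.14, 0.01 and -0.02 against 0.08, -0.01 and 0.07 (0.10 ± 0.06, adjusted p = 0.251), with a 95% interval from -0.04 to 0.24. Its probe set is annotated with transcripts of both products of the locus, the INK4 inhibitor and ARF, which cannot be told apart here.

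In the CIP/KIP family, Cdkn1c, the imprinted inhibitor p57, stood at -0.47, -0.06 and -0.11 against 0.14, 0.06 and 0.18, with undifferentiated replicate 1 lowest. It was 1.26-fold higher (0.34 ± 0.10, adjusted p = 0.0306), but the call was lost without differentiated replicate 1 (0.0847) or 3 (0.0978) and after cyclic loess (0.0534). Without undifferentiated replicate 1 its change was 0.21. Cdkn1b, the inhibitor p27, stood at 0.17, 0.08 and -0.02 against -0.04, -0.05 and -0.22 and did not pass (-0.18 ± 0.07, adjusted p = 0.0841). It passed without undifferentiated replicate 3 (0.0397). Its pair of probe sets read -0.04 ± 0.06 and -0.32 ± 0.12. Cdkn1a, the p53 target p21, is not analysed here because its row names a second gene.

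**Figure D3:**
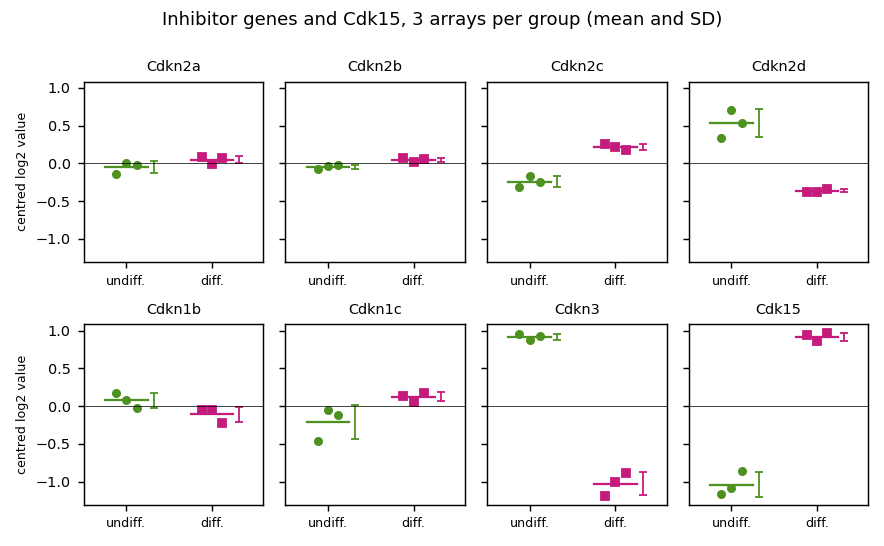
Centred log2 value of the 7 inhibitor genes and of Cdk15 in each array, with 3 undifferentiated arrays (circles) and 3 differentiated arrays (squares) per panel, the mean as a line and the SD as a bar, on 1 shared linear axis. Cdkn3 and Cdkn2d step downward and Cdkn2c and Cdk15 upward, while Cdkn2a and Cdkn2b lie between -0.14 and 0.08 in all arrays.

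Changes were smaller in size among the transcriptional cyclins and kinases than among the cell cycle ones, a description with no test between the classes. Of 14 transcriptional members 4 fell, 2 rose and 8 did not pass, and 0 changed at least 2-fold. With 6 of 14 called, against 35.5% of all genes, their share was near the background. Of 15 cell cycle members 8 fell, 3 rose and 4 did not pass, and at least 2-fold changes were 5 falls and 1 rise. The median size of the log2 fold change, whatever its sign, was 0.18 in transcriptional and 0.80 in cell cycle members, against 0.13 over all genes. With sign, the medians were -0.06 and -0.19. Medians of the cell cycle members by array were 0.15, 0.10 and 0.12 in undifferentiated and -0.09, -0.15 and -0.08 in differentiated arrays, which did not overlap. Those of the transcriptional members were 0.02, 0.01 and -0.06 against 0.02, -0.00 and -0.06, which did. Each cell cycle median by array is the value of a single middle gene (Cdk3, Cdk4 or Cdk6). The signed cell cycle median of -0.19 is the change of Cdk4. These medians therefore do not describe the cell cycle members that fell or rose most. The median change of the transcriptional members was 0.017 without differentiated replicate 3.

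The kinase module of Mediator, the coactivator that links transcription factors to RNA polymerase II, fell in its cyclin and both of its alternative kinases. Cdk8 stood at 0.34, 0.40 and 0.29 against -0.29, -0.32 and -0.40, and was 1.60-fold lower (-0.68 ± 0.06, adjusted p = 1.85e-05). Another array row names Cdk8 together with Rn28s1 and was not used. Ccnc, the cyclin of both kinases, stood at 0.21, 0.35 and 0.24 against -0.39, -0.21 and -0.51, and was 1.55-fold lower (-0.64 ± 0.08, adjusted p = 2.81e-04). Cdk19 stood at 0.37, 0.20 and 0.17 against -0.23, -0.21 and -0.17, and was 1.37-fold lower (-0.45 ± 0.06, adjusted p = 5.18e-04). No undifferentiated array of these genes lay below a differentiated one. Of the other subunits of the module, Med12 (0.05 ± 0.06), Med12l (0.19 ± 0.08, adjusted p = 0.100) and Med13 (-0.12 ± 0.06) did not pass. Their 95% intervals ran from -0.08 to 0.18, 0.01 to 0.38 and -0.25 to 0.003. These intervals do not show that the genes were unchanged. Med13l rose (0.70 ± 0.08, adjusted p = 1.04e-04).

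P-TEFb, the pair of Cdk9 and a T-type cyclin that releases paused RNA polymerase II, did not pass in any subunit. Cdk9 stood at -0.15, 0.01 and -0.15 against 0.06, -0.01 and 0.01 (0.12 ± 0.06, adjusted p = 0.180, 95% interval -0.02 to 0.26). Ccnt1 stood at -0.04, 0.05 and -0.06 against 0.04, 0.04 and -0.27 (-0.04 ± 0.09, adjusted p = 0.772, 95% interval -0.24 to 0.16). Differentiated replicate 3 was the lowest array of Ccnt1 and also of Ccnt2, which was at -0.08 ± 0.07 (adjusted p = 0.422). The intervals of Cdk9 and Ccnt1 do not show that these genes were unchanged. Among the proteins that hold P-TEFb inactive with the 7SK RNA, Hexim1 rose (0.44 ± 0.07, adjusted p = 0.00131) and Larp7 fell (-0.78 ± 0.08, adjusted p = 8.12e-05). Hexim2 (0.02 ± 0.06) and Mepce (-0.04 ± 0.06) did not pass.

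Cdk7 with Ccnh is the CDK-activating kinase, which also phosphorylates the polymerase as part of TFIIH. Cdk7 stood at -0.13, -0.15 and -0.18 against 0.29, 0.22 and 0.14, and was 1.29-fold higher (0.37 ± 0.06, adjusted p = 8.19e-04). This is the mean of 2 probe sets that disagree: one rose (0.78 ± 0.10, adjusted p = 2.64e-04 with each probe set tested) and the other did not pass (-0.04 ± 0.08, adjusted p = 0.730). Ccnh stood at 0.13, 0.25 and -0.05 against -0.03, 0.03 and -0.06 and did not pass (-0.13 ± 0.08, adjusted p = 0.249). It passed without undifferentiated replicate 3 (0.0345). Mnat1, the assembly factor of the complex, fell (-0.24 ± 0.07, adjusted p = 0.0180).

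Cyclin K and its kinases, which support transcription elongation, did not pass: Ccnk at -0.20 ± 0.09 (adjusted p = 0.102), Cdk12 at 0.16 ± 0.07 (0.116) and Cdk13 at 0.11 ± 0.06 (0.193). For Cdk12 the probe sets lay on opposite sides of 0. One was at -0.19 ± 0.07 (adjusted p = 0.0701 with each probe set tested) and the other rose by 0.50 ± 0.07 (6.06e-04), so the mean describes neither. Ccnk passed after cyclic loess (0.0357) and without differentiated replicate 2 (0.0273), and Cdk12 after cyclic loess (0.0366). The L-type cyclins, partners of the splicing-linked kinase Cdk11, split. Ccnl1 stood at -0.34, -0.36 and -0.54 against 0.39, 0.34 and 0.41, and was 1.73-fold higher (0.79 ± 0.07, adjusted p = 1.93e-05). Ccnl2 was 1.16-fold lower (-0.21 ± 0.05, adjusted p = 0.0148), a call lost without undifferentiated replicate 2 (0.0501) or differentiated replicate 1 (0.0557) or 2 (0.0540). Cdk11b was at 0.04 ± 0.05 (adjusted p = 0.625).

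**Figure D4:**
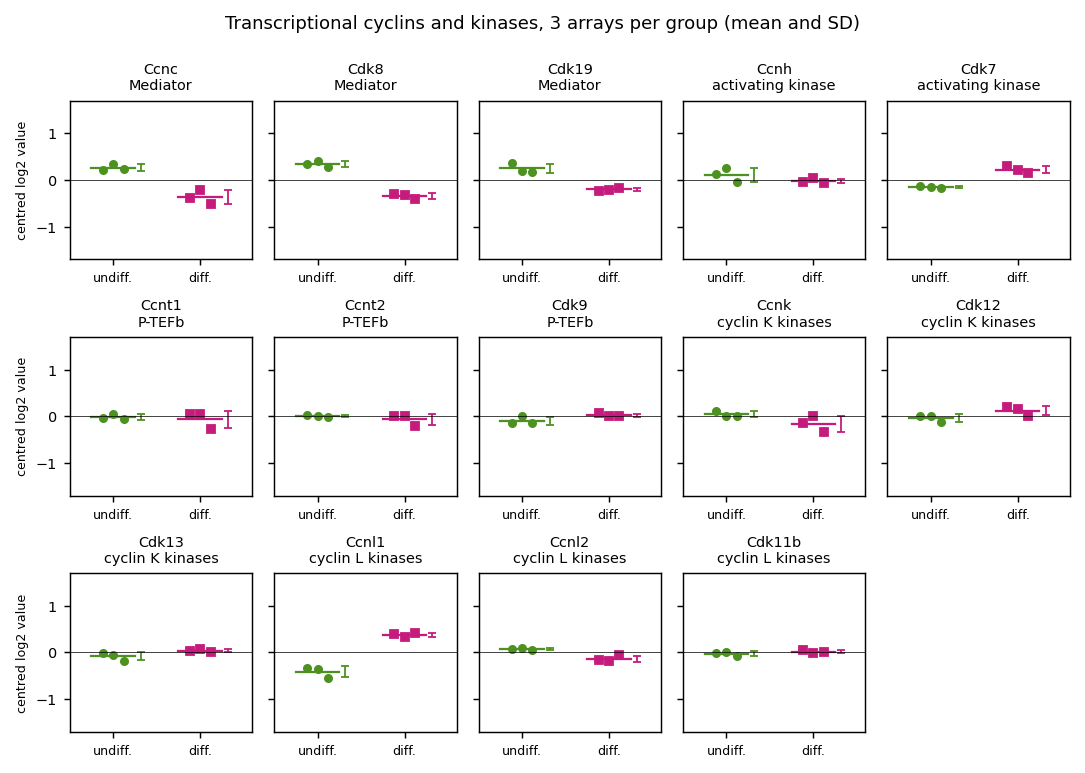
Centred log2 value of the 14 transcriptional members in each array, grouped by complex, with 3 undifferentiated arrays (circles) and 3 differentiated arrays (squares) per panel, the mean as a line and the SD as a bar, on 1 shared linear axis. The Mediator members Ccnc, Cdk8 and Cdk19 step downward and Ccnl1 upward, and the P-TEFb members overlap between groups.

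Of the 15 remaining cyclins and kinases 4 fell, 2 rose and 9 did not pass. Against 19.1% lower and 16.4% higher over all genes, these counts were near the background. Cdk15, a little-studied kinase of the PFTAIRE branch, had the largest rise among all members. It stood at -1.16, -1.09 and -0.86 against 0.94, 0.86 and 0.96, and was 3.88-fold higher (1.96 ± 0.08, adjusted p = 2.68e-07), rank 111 from the top among all genes. Cdk14, its closest relative, which pairs with cyclin Y in Wnt receptor signalling, was at 0.02 ± 0.07 (adjusted p = 0.882), and Ccny at 0.03 ± 0.08 (adjusted p = 0.820). Cdk5, best known from neurons, stood at -0.20, -0.18 and -0.12 against 0.17, 0.12 and 0.17, and was 1.25-fold higher (0.32 ± 0.05, adjusted p = 9.93e-04). Its activators Cdk5r1 (0.05 ± 0.06) and Cdk5r2 (0.15 ± 0.14) did not pass.

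The G-type cyclins, which are induced by p53 (Ccng1) or FOXO factors (Ccng2) and are linked to growth arrest, both fell. Ccng1 stood at 0.57, 0.56 and 0.44 against -0.52, -0.44 and -0.57, and was 2.05-fold lower (-1.03 ± 0.06, adjusted p = 2.08e-06). Ccng2 stood at 0.24, 0.25 and 0.35 against -0.27, -0.24 and -0.26, and was 1.44-fold lower (-0.53 ± 0.05, adjusted p = 6.15e-05). Of the PCTAIRE kinases, which act outside the cell cycle, Cdk16 was 1.35-fold lower (-0.43 ± 0.05, adjusted p = 2.18e-04) and Cdk17 did not pass (-0.12 ± 0.05, adjusted p = 0.113). Cdk18 was 1.20-fold lower (-0.26 ± 0.07, adjusted p = 0.0247), a call lost without undifferentiated replicate 1 (0.0629) or 2 (0.0682) or differentiated replicate 2 (0.0609), and after cyclic loess its change was -0.39. Cdk10 (0.12 ± 0.06) and its partner Ccnq (-0.14 ± 0.07), the cilium-linked Cdk20 (0.07 ± 0.06) and Ccno (-0.12 ± 0.06), Ccni (-0.06 ± 0.06) and Ccnj (-0.19 ± 0.08) did not pass. Ccnj passed without undifferentiated replicate 3 (adjusted p = 0.0241). The probe sets of Ccni (-0.06 and -0.06) and of Cdk10 (0.12 and 0.11) differed little within each gene.

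Related members were compared directly within each array, in 14 of 17 listed pairs for which both genes were measured. The smallest p that an exact two-sided permutation test allows with 3 arrays against 3 is 0.1, which becomes 0.14 after adjustment over the pairs, so no pair could pass. The arrays of the groups did not overlap in 10 pairs. No share over all gene pairs was computed to set beside this count, and among single genes 46.2% did not overlap. Ccnd1 minus Ccnd3 was -0.84 ± 0.03 (SE), Ccnd2 minus Ccnd3 -0.56 ± 0.06 and Ccnd1 minus Ccnd2 -0.28 ± 0.06. Ccne1 minus Ccne2 was 0.98 ± 0.12, Cdk1 minus Cdk2 -1.13 ± 0.06 and Cdkn2c minus Cdkn2d 1.35 ± 0.07. Ccnl1 minus Ccnl2 was 1.00 ± 0.07, Ccng1 minus Ccng2 -0.50 ± 0.08 and Cdk8 minus Cdk19 -0.23 ± 0.08. Cdkn1b minus Cdkn1c was -0.52 ± 0.19. The 4 pairs that overlapped were Cdk4 minus Cdk6 (-0.20 ± 0.13), Cdkn2a minus Cdkn2b (0.01 ± 0.04), Cdk12 minus Cdk13 (0.04 ± 0.05) and Ccnt1 minus Ccnt2 (0.04 ± 0.05). The Cdk12 value averages probe sets on opposite sides of 0, and with the lowest-numbered probe set its pair was -0.30.

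Genes that control CDKs without being members were taken from a list of 35, of which 34 were measured. The list was chosen with earlier results of these data known, so its counts are a description and no independent test. Of the 34 measured genes 17 fell, 5 rose and 12 did not pass, against 19.1% lower and 16.4% higher over all genes. A fall of at least 2-fold was seen in 9, against 2.28% of all genes. The largest falls were in Cdc25c, a phosphatase that activates Cdk1 (-2.68 ± 0.08, adjusted p = 4.02e-08), Mastl, the Greatwall kinase that protects mitotic phosphorylation (-2.25 ± 0.08, adjusted p = 8.87e-08), and the activator and the inhibitor of the anaphase-promoting complex, Cdc20 (-2.23 ± 0.12, adjusted p = 1.0e-06) and Fbxo5 (-2.22 ± 0.15, adjusted p = 4.26e-06). By group, 3 of 3 activating phosphatases fell, as did 6 of 8 turnover genes and 3 of 6 docking and activating subunits. The inhibitory kinases of Cdk1 split, with Pkmyt1 lower (-0.88 ± 0.11, adjusted p = 1.96e-04) and Wee1 higher (0.26 ± 0.06, adjusted p = 0.0124). The pocket proteins, the substrates of cyclin D kinases, went 3 ways: Rbl1 fell (-1.22 ± 0.08, adjusted p = 2.76e-06), Rbl2 rose (0.69 ± 0.08, adjusted p = 9.51e-05) and Rb1 did not pass (0.00 ± 0.06, adjusted p = 0.985). Of the phosphatase regulators that Mastl acts on, Ensa rose (0.22 ± 0.07, adjusted p = 0.0336) and Arpp19 did not pass. Of 9 genes of transcriptional CDK complexes, 2 rose, 2 fell and 5 did not pass, near the shares over all genes.

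**Figure D5:**
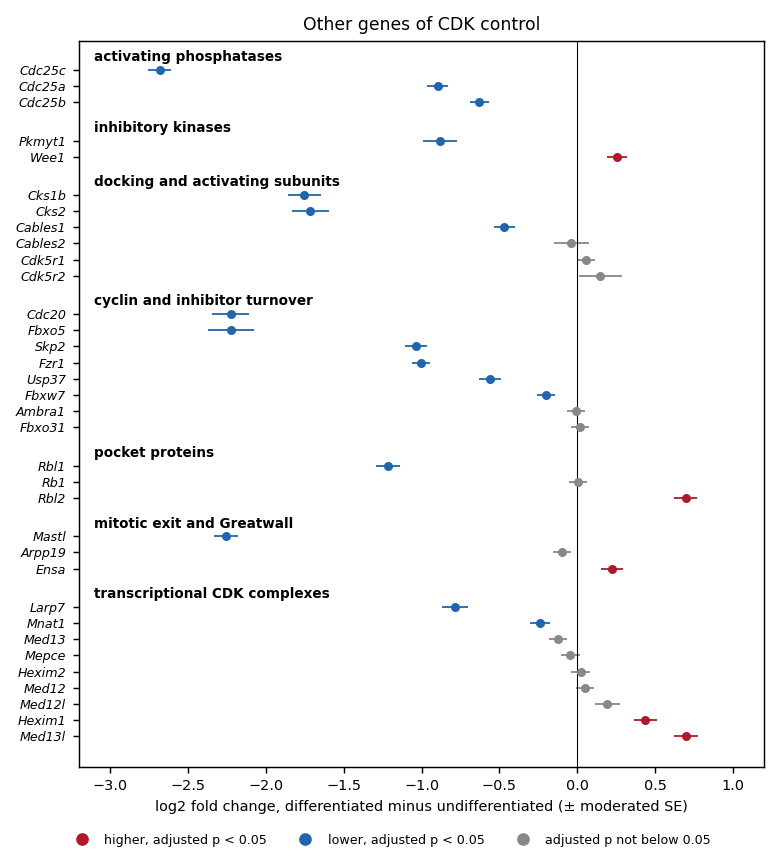
Log2 fold change, differentiated minus undifferentiated, of 34 other genes of CDK control by group, on a linear axis with the moderated standard error as the bar. Cdc25c, Mastl, Cdc20 and Fbxo5 lie farthest left (-2.68 to -2.22), and Med13l (0.70) and Rbl2 (0.69) farthest right.

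The general proliferation markers Mki67 (-2.94 ± 0.08), Top2a (-1.88 ± 0.09) and Pcna (-0.37 ± 0.06) fell. So did 8 of the 15 cell cycle members, while 3 rose and 4 did not pass. In bulk RNA, fewer cycling cells and less RNA per cycling cell cannot be told apart. Of the osteoblast markers, Ibsp and Alpl rose, Sp7 and Col1a1 fell and Col1a2 did not pass, while Runx2, Bglap and Spp1 were not analysed here. These and the following marker counts stand beside 16.4% higher and 19.1% lower over all genes, and no difference from those shares was tested. Of 7 adipocyte markers 2 rose, and of 6 chondrocyte markers 1 rose and 1 fell. Of 5 macrophage markers 1 rose, and 0 of 5 endothelial markers passed the limma test (1 had an unadjusted p under 0.05). The part of these markers in the members' changes was not tested, and whether any of them was expressed cannot be read from centred values. Residual SDs around the group means were 0.0745 to 0.0947 over the 6 arrays.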

How the data were processed

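Biotin-labelled RNA from MC3T3-E1 cells was hybridised to 1-colour arrays, with 1 array per sample and 3 per group, grouped and numbered by their titles. The deposited values are log2 expression made by the authors with RMA, per the submitters' processing notes, with no version given; the log base follows from that method and is not stated. The centring of each probe set on a median of 0 over the arrays was seen only in the values (to within 1e-06). It leaves differences between arrays intact and removes the level, so no filter on dim genes could be made. Arrays have no read depth, and their number sets the precision. A higher value was taken as more RNA.

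Of 28856 probe sets, 21789 name 1 gene in the platform annotation, 1621 several and 5446 none. Only the first kind was used, and symbols were updated by gene ID through a RefSeq table of GRCm38.p6 (21698 matched). Where a gene had several probe sets their mean was used, as in 5 members. The planned protein stretches were not used here.

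Differentiated minus undifferentiated was fitted with limma 3.58.1 in R 4.3.3 (lmFit and eBayes, two-sided) without a replicate block, p-values were adjusted over all 19938 genes by Benjamini-Hochberg, and the fit was checked on simulated data. Same-numbered arrays deviated from their group means with correlations of -0.00133, 0.0692 and 0.162 over genes, so the numbers were not treated as pairs. The members and the lists of partners, pairs and markers were chosen with earlier results of these data known. Every member is named. Values per array are given in full for members changed at least 2-fold and for a fixed set of cyclins, kinases and inhibitors. Per-array values of Cdk5, Cdk19, Ccng2 and Ccnl1, and partners beyond the leading 4, were added after their values were seen. Alternatives were other scalings, the replicate block, other handling of probe sets, robust eBayes, array weights and each array left out.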

Additional observations from a re-analysis of the deposited data

How the results depend on the processing

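The 51 members were refitted under 14 alternatives, and the call held in all that gave a value for 42 of them. The 9 others (Ccnh, Ccnj, Ccnk, Ccnl2, Cdk4, Cdk12, Cdk18, Cdkn1b and Cdkn1c) kept their direction, except Cdk12, at -0.19 with the lowest-numbered probe set. With the replicate number as a block, 19 members were lower and 9 higher, since Cdkn1b passed (adjusted p = 0.0403); no other member's call changed under this block. The sets that moved by more than 1.5 times were small. Risen inhibitors numbered 1 after cyclic loess and 1 to 2 with each array left out. Risen transcriptional members numbered 1 among genes with 1 probe set, where Cdk7 is absent by construction. The transcriptional median was -0.11 with the lowest-numbered probe set or only genes with 1 probe set, ran from -0.10 to 0.017 with each array left out, and turned positive (0.017) without differentiated replicate 3; the cause was not tested. The cell cycle minus transcriptional median was -0.12 and ran from -0.22 to -0.057 with each array left out. Chosen after seeing the data, counting Cdk7 and Ccnh as cell cycle members gave a cell cycle median of -0.13, a difference of -0.070 and 1 risen transcriptional member. Members lower ranged from 15 to 21 with each array left out, and cell cycle members lower from 7 to 8. Among pairs, Cdk12 minus Cdk13 was -0.30 with the lowest-numbered probe set. After cyclic loess Ccne1 minus Ccne2 was 0.68. Signal over background is unknown, so whether the genes that did not pass were expressed cannot be read.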
